A study of Homo sapiens with 12 samples.

Results

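The human mitochondrial genome encodes 13 mRNAs, and 6 of these carry the subunits of respiratory complexes III, IV and V. They are MT-CYB of complex III, MT-CO1, MT-CO2 and MT-CO3 of complex IV, and MT-ATP6 and MT-ATP8 of complex V. The genes were taken by name from the deposited count table, and all 6 were found among its 32077 genes. RNA-seq had been performed in PC3 and DU145 cells, both human prostate cancer lines in long use and labelled wild type. Cells of each line were grown for 48 hours with vehicle, which the study describes as sterile distilled water, or with 2.5 μmol/L pentamidine, an aromatic diamidine used against protozoan parasites. Each of the 4 groups had 3 samples, 12 in all, and RNA was enriched with Oligo(dT) beads, so that molecules with a poly(A) tail were measured. No source used here says whether the samples of a group came from separate cultures, so the p-values measure the spread between these samples only.

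Cytochrome b, encoded by MT-CYB, is the only subunit of complex III made inside mitochondria, and with its nuclear partners it passes electrons from ubiquinol to cytochrome c. Complex IV, cytochrome c oxidase, hands those electrons to oxygen. Its catalytic core is built from the products of MT-CO1, which holds the oxygen-reducing centre, MT-CO2, which receives electrons from cytochrome c, and MT-CO3. Complex V, the ATP synthase, uses the resulting proton gradient, with the MT-ATP6 product forming part of its proton path and the small MT-ATP8 product part of its membrane domain. These mRNAs are cut from long transcripts that cover most of the mitochondrial genome, and several share the same promoters. They have little or no untranslated sequence, and most are freed where flanking tRNAs are cut out.

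All 6 genes lie on the + strand of chromosome MT (GRCh38) and have a single exon. MT-CO1 spans positions 5904 to 7445, MT-CO2 positions 7586 to 8269, MT-ATP8 positions 8366 to 8572, MT-ATP6 positions 8527 to 9207, MT-CO3 positions 9207 to 9990 and MT-CYB positions 14747 to 15887. MT-ATP8 and MT-ATP6 share 46 bases and are translated from 1 mRNA in different reading frames. The shared bases are shown because a read there cannot be given to either gene alone. They lie at positions 8527 to 8572, with the first codon of MT-ATP6 and the last codon of MT-ATP8 in capitals:
MT-ATP8 and MT-ATP6 overlap: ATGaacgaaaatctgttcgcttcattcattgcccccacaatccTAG
This stretch is 22.2% of the 207 bases of MT-ATP8. MT-ATP6 and MT-CO3 share 1 base, shown in capitals within positions 9196 to 9218, with no tRNA between them:
MT-ATP6 and MT-CO3 junction: gacaacacataAtgacccaccaa
The last 24 bases of each coding sequence are shown because the poly(A) tail, by which the RNA was captured, is added at or beyond this end. Capitals mark the last annotated codon or, where the length is no multiple of 3, the single base left over, which polyadenylation turns into a stop codon.
MT-CO1, positions 7422 to 7445: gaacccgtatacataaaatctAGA
MT-CO2, positions 8246 to 8269: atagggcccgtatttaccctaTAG
MT-CO3, positions 9967 to 9990: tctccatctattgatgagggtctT
MT-CYB, positions 15864 to 15887: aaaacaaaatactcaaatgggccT
MT-ATP6, positions 9184 to 9207: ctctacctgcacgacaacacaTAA
MT-ATP8, positions 8549 to 8572: cattcattgcccccacaatccTAG
All 6 sequences were read from GENCODE release 29, an annotation of GRCh38, and not from these cells. MT-CO3 and MT-CYB are the members left with 1 base after 261 and 380 whole codons.

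Libraries held between 13514195 and 15131436 counts. The epithelial keratins KRT8 and KRT18 had 238 counts or more in every sample, whereas EPCAM, another epithelial marker, had 2 counts or fewer. KLK3, which androgen drives in luminal cells, PTPRC of leukocytes, and DCN and LUM of fibroblasts also had 2 counts or fewer in every sample. In the first vehicle-treated PC3 sample the 3 shortest of the 13 mRNAs stood low. MT-ATP8, MT-ND4L and MT-ND3 were at 0.488, 0.593 and 0.582 times the mean of the other 2 samples there. The other 10 mRNAs were at 0.873 times (MT-ATP6) to 1.177 times (MT-ND5, the longest). Results for MT-ATP8 that include PC3 cells rest in part on that sample, and those that it moved most are given with and without it.

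Levels are given as CPM per kb, the count scaled to library size with TMM normalization over all 12 samples and divided by the annotated length in kilobases. In vehicle-treated cells the order was MT-CO1, MT-CO2, MT-CO3, MT-ATP6, MT-CYB and MT-ATP8 by the mean in both lines. MT-CO1 had the highest mean CPM of all genes in the table in both lines. Its level was 8574, 8180 and 8488 CPM per kb in the vehicle-treated PC3 samples and 8845, 8949 and 9059.6 in those of DU145 cells.

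The other subunits of the complex IV core followed. MT-CO2 was at 5845, 5664 and 6315 CPM per kb in vehicle-treated PC3 cells and at 6827, 6997 and 7335 in DU145 cells. MT-CO3 was at 3585, 3992 and 3899 CPM per kb in PC3 cells and at 5341, 5734 and 5733 in DU145 cells. The ranges of the 3 complex IV mRNAs did not overlap within either line, so the 3 mRNAs of 1 enzyme were not present at equal levels. Per kb, MT-CO1 was 2.21 ± 0.173 times MT-CO3 in the PC3 and 1.60 ± 0.0504 times in the DU145 samples (SD, n = 3).

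MT-ATP6 and MT-CYB came next, close together. MT-ATP6 was at 1791, 1875 and 2229.7 CPM per kb in vehicle-treated PC3 cells and at 2233, 2341 and 2418 in DU145 cells. MT-CYB was at 1799.6, 1627 and 1793 CPM per kb in PC3 cells and at 1967, 2049 and 2082 in DU145 cells. Their ranges overlapped in PC3 cells and not in DU145 cells. MT-ATP8 was lowest, with 238, 527 and 449 CPM per kb in PC3 cells and 472, 491 and 586 in DU145 cells.

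Each neighbouring pair in this order was compared within the 6 vehicle samples by an exact two-sided sign-flip permutation test on the log2 ratio per kb, adjusted over 5 pairs. The lowest p this design allows is 0.0313. The order was taken from these same 6 samples, so a p shows only how steadily a pair kept its sign across them. It is no independent test of the order. MT-CO1 exceeded MT-CO2 by 0.42 ± 0.0995 on the log2 scale (SD, n = 6, adjusted p = 0.0391, exact permutation test), and in 6 of 6 samples. MT-CO2 exceeded MT-CO3 by 0.48 ± 0.182, and MT-CO3 exceeded MT-ATP6 by 1.12 ± 0.189, each in 6 of 6 samples with the same adjusted p. MT-ATP6 was above MT-CYB in 5 of 6 samples, by 0.18 ± 0.105 (n = 6, adjusted p = 0.0625, exact permutation test), so this pair did not pass the test. The sample with the opposite order was the first vehicle-treated PC3 sample. There MT-ATP6 was at 0.873 and MT-CYB at 1.053 times the mean of the other 2 PC3 vehicle samples. With MT-ATP8 and MT-ATP6 counted as 1 unit over their 842 bases, neither this unit nor MT-CYB was steadily the higher. The mean log2 ratio was -0.032, and the unit was above MT-CYB in 3 of 6 samples (unadjusted p = 0.656, exact permutation test). With the nuclear copies added to their members MT-ATP6 was the higher by 0.39, in 6 of 6 samples (adjusted p = 0.0312, exact permutation test). Whether these 2 mRNAs had a steady order thus depended on what was counted.

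MT-CYB exceeded MT-ATP8 by 2.08 ± 0.442 on the log2 scale in the vehicle samples (SD, n = 6, adjusted p = 0.0391, exact permutation test). Distances in this order depended on how length was treated. Dividing by the number of positions at which a 150-base read can start, which leaves few in MT-ATP8, gave 0.45 for this pair, in 5 of 6 samples (n = 6, adjusted p = 0.0625, exact permutation test). In the same way MT-CO1 exceeded MT-CO2 by 0.22 and MT-ATP6 exceeded MT-CYB by 0.34, each in 6 of 6 samples (adjusted p = 0.0391, exact permutation test). The level of MT-ATP8 relative to the other mRNAs is therefore uncertain. Its change between groups does not depend on the length used for scaling, which is the same in every sample. That change can still be affected by the first vehicle-treated PC3 sample, in which the shortest mRNAs stood low.

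**Figure D1:**
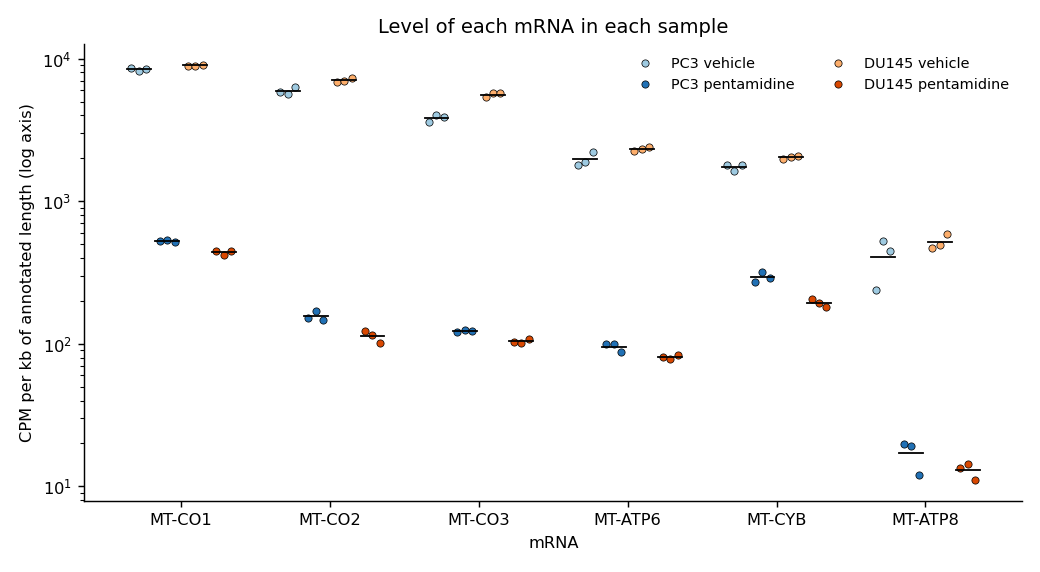
Level of the 6 mRNAs in each of the 12 samples, in CPM per kb of annotated length on a log axis. Points are samples, horizontal lines are the means of 3, and colours are groups. All pentamidine samples lay below all vehicle samples of the same line for every mRNA. MT-CYB was the fifth by the mean under vehicle and the second after pentamidine treatment.

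Under vehicle the lines were not equal. By edgeR's quasi-likelihood test and Benjamini-Hochberg adjusted p, 5 of the 6 mRNAs were higher in DU145 than in PC3 cells, where 33.8% of the 14394 genes tested were called higher. MT-CO3 differed most, with a log2 difference of 0.57 (SE 0.0489, adjusted p = 2.8e-08). MT-CO2, MT-ATP6 and MT-CYB differed by 0.27, 0.27 and 0.25 (adjusted p at most 0.00177). MT-CO1 differed by 0.11 (SE 0.0362, adjusted p = 0.0111), but by 0.03 with scaling by library size alone (adjusted p = 0.371), and by 0.11 without the third vehicle-treated DU145 sample (adjusted p = 0.0685). MT-ATP8 gave 0.37 (SE 0.182, adjusted p = 0.0819) and did not pass. Without the second vehicle-treated PC3 sample it gave 0.61 (adjusted p = 0.00996), and without the low first sample 0.09 (adjusted p = 0.233). For the 5 mRNAs that passed, the 3 DU145 samples lay above the 3 PC3 samples, as was so for 34.4% of the genes tested. As a plain share of the library, without TMM, this held for 3 of the 6, and samples of both lines overlapped for MT-CO1 and MT-ATP6 too.

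To examine how pentamidine acted on mitochondrial transcripts, treated and vehicle samples were compared within each line. All 6 mRNAs fell in both lines, past the thresholds of 1 for the size of the log2 fold change and 0.05 for the adjusted p. Among all genes tested, 1.31% of 13861 were called lower in PC3 cells and 0.657% of 14313 in DU145 cells. The groups did not overlap for any of the 6 in either line, which was so, with the treated samples lower, for 26.1% of genes tested in PC3 and for 22.1% in DU145 cells. Together the 6 took 2.37% ± 0.0458 of a PC3 library under vehicle and 0.142% ± 0.00394 after treatment (SD, n = 3). In DU145 cells they took 2.63% ± 0.0656 and 0.113% ± 0.0033. These are shares of a bulk library of RNA captured by its poly(A) tail. Fewer cells with these mRNAs, less of them per cell, and less of them with a tail that is captured cannot be told apart.

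MT-CYB, the complex III mRNA, fell least of the 6. Its level after treatment was 271, 319 and 289 CPM per kb in the PC3 samples and 207, 195 and 181 in the DU145 samples. All treated samples were below all vehicle samples, yet the mRNA stayed well above MT-CO2 and MT-CO3, which it had been below. The log2 fold change was -2.57 in PC3 cells (SE 0.0621, edgeR's adjusted p = 1.93e-15) and -3.38 in DU145 cells (SE 0.0356, adjusted p = 1.54e-55). This left 16.9% and 9.58% of the vehicle level.

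The complex IV mRNAs fell to unequal extents. MT-CO1 was at 530.0, 532 and 521 CPM per kb in the treated PC3 samples and at 450.1, 419.6 and 449 in the treated DU145 samples. It remained the most abundant of the 6 in every treated sample. Its log2 fold change was -3.99 in PC3 cells (SE 0.0467, edgeR's adjusted p = 1.76e-19) and -4.34 in DU145 cells (SE 0.0313, adjusted p = 1.78e-63), a 15.9-fold and a 20.3-fold decrease.

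MT-CO2 fell most in both lines. It was at 152, 169.9 and 147 CPM per kb in treated PC3 cells and at 123, 116 and 101 in treated DU145 cells. Its log2 fold change was -5.24 in PC3 cells (SE 0.0681, edgeR's adjusted p = 3.84e-19) and -5.96 in DU145 cells (SE 0.0426, adjusted p = 1.54e-63), which left 2.64% and 1.61% of the vehicle level. Ordered from the lowest log2 fold change among all genes tested, MT-CO2 was number 2 in PC3 cells and number 1 in DU145 cells.

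MT-CO3 was next. It was at 121, 124 and 123 CPM per kb in treated PC3 cells and at 104, 102 and 108 in treated DU145 cells, with a narrow spread in both. Its log2 fold change was -4.96 in PC3 cells (SE 0.0600, edgeR's adjusted p = 1.76e-19) and -5.74 in DU145 cells (SE 0.0380, adjusted p = 8.77e-65), or 31.1-fold and 53.5-fold. In the same ordering of all genes it was number 3 in PC3 cells and number 2 in DU145 cells.

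The complex V mRNAs fell to a degree between those of MT-CO1 and MT-CO3. MT-ATP6 was at 99.2, 100 and 87.4 CPM per kb in treated PC3 cells and at 81.4, 77.8 and 84.0 in treated DU145 cells. Its log2 fold change was -4.36 in PC3 cells (SE 0.0841, edgeR's adjusted p = 7.82e-17) and -4.84 in DU145 cells (SE 0.0397, adjusted p = 9.1e-61). MT-ATP8 had only 37 to 61 counts in each treated PC3 sample and 33 to 44 in each treated DU145 sample. Its log2 fold change was -4.56 in PC3 cells (SE 0.27, edgeR's adjusted p = 4.72e-10) and -5.30 in DU145 cells (SE 0.1, adjusted p = 4.15e-43). Without the low first vehicle-treated PC3 sample it was -4.84 in PC3 cells.

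The level of MT-ATP8 after treatment was 19.9, 19.3 and 12.1 CPM per kb in PC3 cells and 13.5, 14.4 and 11.1 in DU145 cells. Its treated ranges in both lines overlapped, and it was the lowest of the 6 in all 12 samples. For the other 5 mRNAs every treated DU145 sample lay below every treated PC3 sample, by CPM and by plain share of the library, as was so by CPM for 35.3% of the 15226 genes tested.

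**Figure D2:**
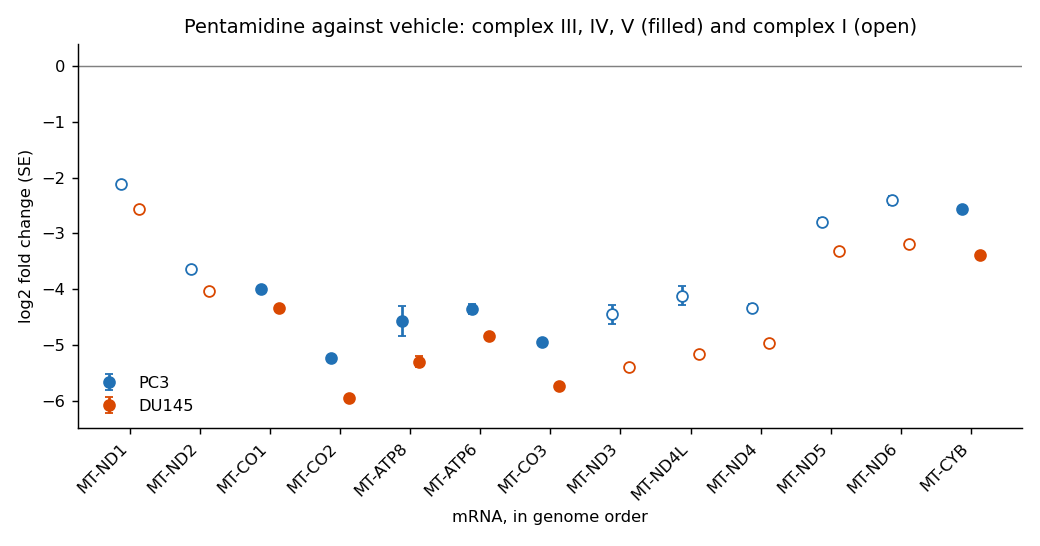
Log2 fold change of the 13 mitochondria-encoded mRNAs after pentamidine treatment, with SE, in genome order, for PC3 (blue) and DU145 cells (orange). Filled points are the 6 mRNAs of complexes III, IV and V and open points those of complex I. MT-CO2 had the lowest value in both lines and MT-CYB the highest of the filled points.

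Set along the genome, the decrease was large in its middle. From MT-CO2 to MT-CO3, 4 neighbouring members had log2 fold changes of -4.36 to -5.24 in PC3 cells and -4.84 to -5.96 in DU145 cells. The complex I mRNAs that follow also fell steeply. MT-ND3, MT-ND4L and MT-ND4 had -4.45, -4.12 and -4.33 in PC3 cells and -5.40, -5.17 and -4.96 in DU145 cells. MT-CYB lies at the far end, beyond MT-ND5 (-2.79 in PC3 and -3.32 in DU145 cells) and MT-ND6 (-2.41 and -3.20), and its values were nearer to theirs than to those of any other member. MT-ND6 lies on the - strand, unlike the members, and it is not known whether counting used the strand. Of the 7 complex I mRNAs all passed the threshold in both lines, with values between -2.11 and -4.45 in PC3 cells and between -2.56 and -5.40 in DU145 cells. The 6 members held 69.3% ± 0.311 of the counts on the 13 mRNAs in vehicle-treated PC3 cells and 57.3% ± 0.243 after treatment, and 66.9% ± 0.268 and 53.9% ± 0.523 in DU145 cells (SD, n = 3). The ranges of these shares did not overlap within a line.

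The genes of the mitochondrial rRNAs, which lie before all of these mRNAs in genome order, moved the other way in the same libraries, and were named after their values were seen. MT-RNR1, the rRNA of the small ribosomal subunit, had log2 fold changes of 3.15 in PC3 cells (SE 0.0533, edgeR's adjusted p = 1.2e-17) and 2.32 in DU145 cells (SE 0.032, adjusted p = 8.67e-50). MT-RNR2, that of the large subunit, had 2.45 and 1.36. Selection by poly(A) captures rRNA only in part, so these values are not the full rRNA level. The study also saw this rise by RNA-seq, but by qPCR reported a fall of all mitochondria-encoded genes, MT-RNR1 and MT-RNR2 included. It presumed a small number of sequencing errors. The direction of the rRNAs thus differed between the methods, while the mRNAs fell by both. The cause of the difference for the rRNAs was not tested here.

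The make-up of the 6 changed with the loss. Per kb, MT-CYB was 7.81% ± 0.406 of the 6 in vehicle-treated PC3 cells and 24.1% ± 1.29 after treatment, and 7.67% ± 0.034 and 20.5% ± 0.976 in DU145 cells (SD, n = 3). MT-CO1 was 37.8% ± 1.36 and then 43.6% ± 1.28 in PC3 cells, and 33.8% ± 0.581 and then 46.5% ± 1.38 in DU145 cells. MT-CO2 was 26.6% ± 0.683 and then 12.9% ± 0.490 in PC3 cells, and 26.6% ± 0.308 and then 11.97% ± 1.00 in DU145 cells. For these 3 mRNAs and for MT-CO3, the shares under vehicle and after treatment did not overlap in either line. The result for MT-CO1 depended on the scale. By counts not divided by length, its share of the 6 was 55.4% ± 1.19 and then 57.4% ± 1.37 in PC3 cells, with overlap, and of the counts on all 13 mRNAs it was 38.3% ± 0.736 and then 32.9% ± 0.892. MT-CO3 was 17.2% ± 0.965 and then 10.1% ± 0.291 in PC3 cells, and 21.2% ± 0.404 and then 11.1% ± 0.479 in DU145 cells. MT-ATP6 was 8.80% ± 0.736 and then 7.88% ± 0.450 in PC3 cells, and 8.80% ± 0.0953 and then 8.58% ± 0.368 in DU145 cells, with overlapping ranges in both, although by counts not divided by length its ranges did not overlap. In both lines the order after treatment was MT-CO1, MT-CYB, MT-CO2, MT-CO3, MT-ATP6 and MT-ATP8. The ranges of neighbours in that order overlapped only for MT-CO2 and MT-CO3, and only in DU145 cells.

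**Figure D3:**
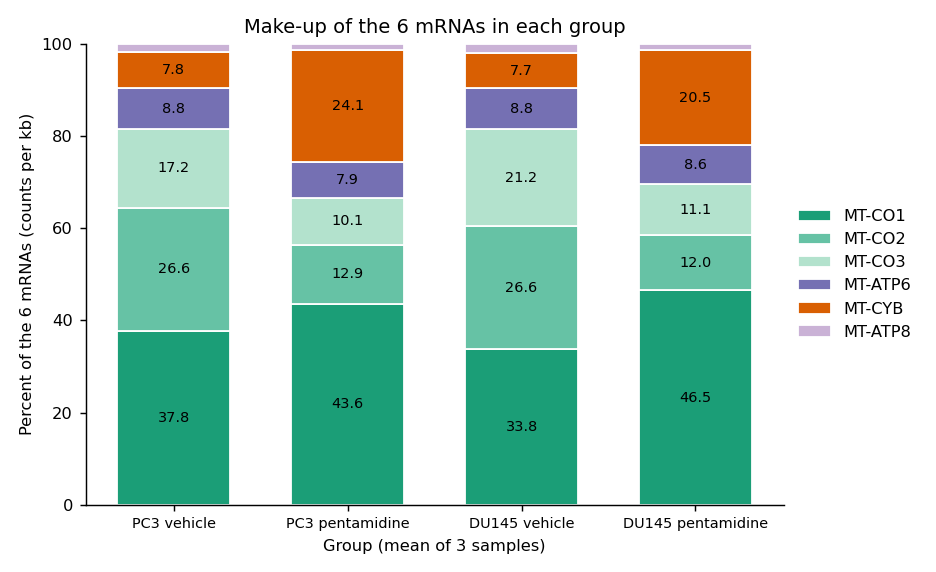
Share of each mRNA in the summed counts per kb of the 6, in percent, as the mean of 3 samples in each group. MT-CYB (orange) was 7.8 and 7.7 under vehicle and 24.1 and 20.5 after pentamidine treatment in PC3 and DU145 cells, and MT-CO2 was 26.6 in both and then 12.9 and 11.97.

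Whether the loss differed between members was tested on the log2 ratio of their counts within a sample, which does not depend on library size. An exact two-sided permutation test shuffled treatment within each line, giving 400 arrangements and a smallest p of 0.005, and was adjusted over the 15 pairs. The ratio changed for 14 of 15 pairs, and 11 pairs had no overlap between treated and vehicle samples in either line. Every gene enters several pairs, so the 15 results are not independent. The 11 pairs at the smallest p share an adjusted p of 0.00682 (exact permutation test), whatever the size of their change. As only 3 samples were compared with 3 in a line, no line reached p below 0.1 on its own, and values within lines are given without a test.

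Against MT-CYB every other member was lost more. The MT-CYB to MT-CO2 ratio rose by 2.63 on the log2 scale (2.68 in PC3 and 2.58 in DU145 cells), the widest change of all pairs. The ratio of MT-CYB to MT-CO3 rose by 2.37, to MT-ATP8 by 1.94, to MT-ATP6 by 1.62 and to MT-CO1 by 1.19 (adjusted p = 0.00682 for each, exact permutation test, n = 12). In PC3 cells the MT-CYB to MT-CO2 log2 ratio was -1.03 ± 0.0633 under vehicle and 1.64 ± 0.0689 after treatment (SD, n = 3). In DU145 cells it was -1.06 ± 0.0224 and 1.52 ± 0.0543.

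Among the complex IV mRNAs, MT-CO2 and MT-CO3 parted from MT-CO1. The MT-CO1 to MT-CO2 ratio rose by 1.44 (1.25 in PC3 and 1.62 in DU145 cells) and the MT-CO1 to MT-CO3 ratio by 1.182 (0.97 and 1.40), each with an adjusted p of 0.00682 (exact permutation test, n = 12). MT-CO2 and MT-CO3 stayed closest, with a ratio that fell by 0.25 (adjusted p = 0.00682, exact permutation test, n = 12). Per kb, MT-CO1 stood at 1.42 ± 0.0654 times MT-CO2 in vehicle-treated PC3 cells and 3.39 ± 0.22 times after treatment, and at 1.27 ± 0.0313 and 3.91 ± 0.462 times in DU145 cells (SD, n = 3).

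MT-CO3 and MT-ATP6 are joined at 1 base, as shown above, and still changed unequally. Their log2 ratio fell by 0.75 (0.60 in PC3 and 0.90 in DU145 cells, adjusted p = 0.00682, exact permutation test, n = 12). Per kb, MT-CO3 was 1.96 ± 0.194 times MT-ATP6 in vehicle-treated PC3 cells and 2.40 ± 0.0408 times in DU145 cells (SD, n = 3). After treatment the ratios were 1.29 ± 0.099 and 1.29 ± 0.0194. The MT-CO1 to MT-ATP6 ratio rose by 0.43 and the MT-CO2 to MT-ATP6 ratio fell by 1.00 (adjusted p = 0.00682 for both, exact permutation test, n = 12).

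MT-ATP6 and MT-ATP8, read from 1 mRNA, were the pair that did not pass. Their log2 ratio moved by 0.32 (0.17 in PC3 and 0.47 in DU145 cells, adjusted p = 0.13, exact permutation test, n = 12). Their vehicle and treated samples overlapped in PC3 cells but not in DU145 cells. Without the low first vehicle-treated PC3 sample the value was 0.46 (adjusted p = 0.0115, exact permutation test, n = 11), so the call rests on that sample. The MT-CO3 to MT-ATP8 ratio fell by 0.43 (adjusted p = 0.0482, exact permutation test, n = 12) and missed the threshold in 9 of the 12 fits that left out a sample. The ratios of MT-CO1 and MT-CO2 to MT-ATP8 changed by 0.75 and -0.69 (adjusted p = 0.0173 and 0.0125, exact permutation test, n = 12). Without the low sample they changed by 0.93 and -0.52, the MT-CYB to MT-ATP8 ratio by 2.12 and the MT-CO3 to MT-ATP8 ratio by -0.29, and the last of these did not pass.

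**Figure D4:**
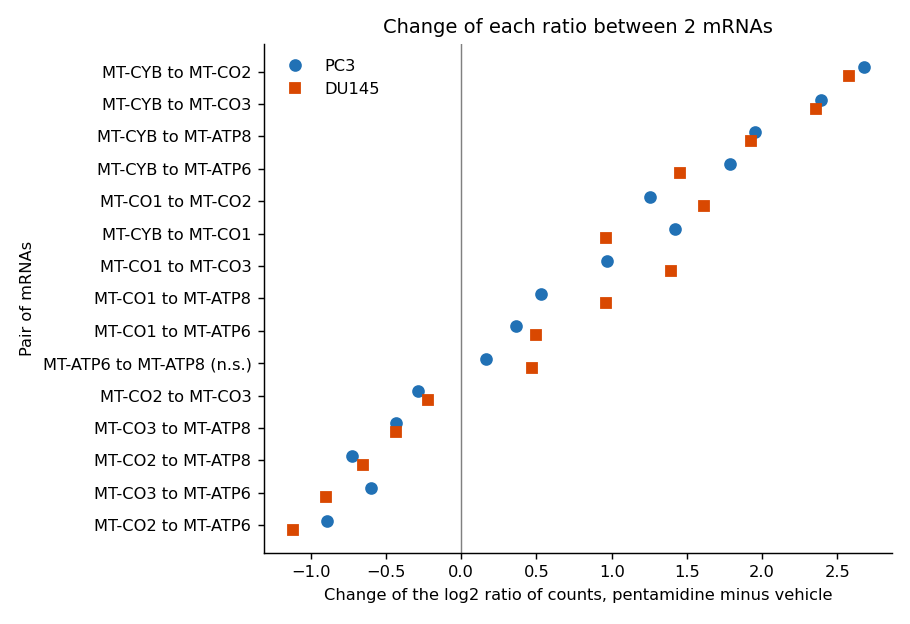
Change of the log2 ratio of counts for the 15 pairs of mRNAs, pentamidine minus vehicle, in PC3 (circles) and DU145 cells (squares). Pairs are ordered by the mean of both lines, and n.s. marks the pair with an adjusted p of 0.13. The widest change was 2.68 in PC3 and 2.58 in DU145 cells, for MT-CYB to MT-CO2.

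The decrease was deeper in DU145 cells. In a fit of all 12 samples, the log2 fold change was lower in DU145 than in PC3 cells for 5 of the 6 (interaction term, edgeR's adjusted p below 0.05), where 10.2% of the 15226 genes tested were called in that direction and 20.4% in either. The difference was -0.82 for MT-CYB (SE 0.0734, adjusted p = 2.74e-09), -0.78 for MT-CO3 (SE 0.0617, adjusted p = 2.41e-10) and -0.71 for MT-CO2 (SE 0.0793, adjusted p = 1.14e-07). It was -0.48 for MT-ATP6 (SE 0.0917, adjusted p = 0.000284) and -0.35 for MT-CO1 (SE 0.0469, adjusted p = 1.96e-06). MT-ATP8 gave -0.74 (SE 0.45, adjusted p = 0.278) and did not pass. It gave -0.47 without the low first vehicle-treated PC3 sample (adjusted p = 0.129) and -0.99 without the second (adjusted p = 0.0818). This test called 1566 genes with a higher and 1546 with a lower fold change in DU145 cells, but 2265 and 1128 with scaling by library size alone, under which the same 5 members still passed with differences of -0.29 to -0.75.

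Nuclear copies of these genes, left by old transfers of mitochondrial DNA into chromosomes, can take or give reads. MTATP6P1 on chromosome 1 (positions 633696 to 634376) matched MT-ATP6 at 98.5% of 681 bases, with 10 mismatches and no identical stretch longer than 141 bases. In PC3 cells it held 2482 to 3593 counts under vehicle and 158 to 182 after treatment, and in DU145 cells 2692 to 3610 and 113 to 142. Relative to MT-ATP6 this was 15.8% ± 2.26 and 18.3% ± 0.391 in PC3 cells, and 14.4% ± 1.05 and 15.9% ± 1.34 in DU145 cells (SD, n = 3). Its log2 fold change was -4.15 (SE 0.123, edgeR's adjusted p = 3.94e-14) in PC3 cells and -4.70 (SE 0.0727, adjusted p = 2.37e-47) in DU145 cells, close to that of MT-ATP6 in the same line. With the copies added to their members, MT-ATP6 changed by -4.33 and -4.82.

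The other copies took few counts. MTCO1P12 on chromosome 1 (positions 631074 to 632616) matched MT-CO1 at 98.7% of 1542 bases with 20 mismatches, and its longest identical stretch, of 245 bases, exceeds the read length. It had 104 to 183 counts under vehicle in PC3 cells and 126 to 151 in DU145 cells, at most 0.0939% of MT-CO1. After treatment it had 3 to 12 and 7 to 11 counts, with log2 fold changes of -4.50 (SE 0.335, edgeR's adjusted p = 1.04e-08) and -3.90 (SE 0.225, adjusted p = 9.41e-21). MTCO3P12 on chromosome 1, MTCO3P11 on chromosome 9 and MTCYBP18 on chromosome 5 had 10 counts or fewer in every sample. No copy of MT-CO2 or MT-ATP8 reached 10 counts in total. How reads that match a gene and its copy were assigned, and whether counting used the strand, is not given in the sources used here.

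The nuclear genes of the same complexes had small fold changes. None of the 38 tested genes listed for complexes III, IV and V, and none of the 30 tested assembly factors, passed both thresholds in either line. Of all genes tested, 4.75% did so in PC3 and 2.03% in DU145 cells. By the adjusted p alone, 21.7% of all genes tested were higher and 21.7% lower in PC3 cells, and 17.2% higher and 16.8% lower in DU145 cells. Of the 9 nuclear subunits of complex III, 1 was lower in PC3 cells, UQCRC2 of the core (-0.13, SE 0.0507, edgeR's adjusted p = 0.0455), and 1 in DU145 cells, UQCR11 (-0.23, SE 0.0908, adjusted p = 0.0425). Their median log2 fold changes were -0.11 and -0.02, in the same order of lines, beside 0.0046 and 0.0085 over all genes tested.

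Of the 11 tested nuclear subunits of complex IV, 2 rose in PC3 cells, COX5B (0.32) and COX4I1 (0.20), with edgeR's adjusted p of 0.0156 and 0.0211. In DU145 cells 4 rose, with COX5A highest (0.29, adjusted p = 4.16e-07), and COX7B fell (-0.14, adjusted p = 0.0187). Their medians were 0.09 and 0.13. Of the 18 genes listed for complex V, 1 rose and 4 fell in PC3 cells, and 4 rose and 2 fell in DU145 cells, with medians of -0.09 and 0.01. The list includes ATPIF1, an inhibitor of the enzyme and not a subunit, which rose in DU145 cells (0.16, edgeR's adjusted p = 0.00202). ATP5G3, for the ring that turns with proton flow, was lowest in both lines (-0.42 and -0.18, adjusted p = 0.000415 and 0.000184), and USMG5, for a small subunit of the membrane domain, was highest in PC3 cells (0.34, adjusted p = 0.0401). ATP5D, for the central stalk, moved in opposite directions, with -0.26 in the PC3 line and 0.22 in the DU145 line (adjusted p = 0.0412 and 0.00265).

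Among the 30 tested assembly factors, 4 rose and 8 fell in PC3 cells, and 4 rose and 3 fell in DU145 cells. COX19, which helps to supply copper to complex IV, rose by 0.96 in PC3 cells (SE 0.103, edgeR's adjusted p = 8.96e-07) and gave 0.20 in DU145 cells (adjusted p = 0.109). COA3, which acts on newly made MT-CO1 protein, was lowest in PC3 cells (-0.50, adjusted p = 0.00019). SURF1, a complex IV assembly factor, was the highest that passed in DU145 cells (0.39, adjusted p = 0.00168), and TMEM70, needed to assemble the ATP synthase, the lowest (-0.29, adjusted p = 0.000491).

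Of 14 tested genes for proteins that bind, process or degrade mitochondrial mRNA, 6 fell and 0 rose in PC3 cells (edgeR, adjusted p below 0.05). In DU145 cells 8 fell and 2 rose. Of all genes tested, 21.7% were lower and 21.7% higher in PC3 cells, and 16.8% lower and 17.2% higher in DU145 cells. The medians of the 14 genes were -0.08 in PC3 and -0.19 in DU145 cells. FASTKD5, which takes part in cutting transcripts at sites without a tRNA, was lowest in PC3 cells (-0.56, SE 0.0828, adjusted p = 3.26e-05) and gave -0.34 in DU145 cells (adjusted p = 5.16e-06). FASTKD3 was lowest in DU145 cells (-0.45, adjusted p = 1.35e-05) and gave -0.43 in PC3 cells (adjusted p = 0.00347). FASTKD2, also of this RNA-binding family, fell in both lines (-0.23 and -0.39), and FASTK rose in DU145 cells (0.17, adjusted p = 0.00292). No gene of the list passed a fold change of 1 on the log2 scale.

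**Figure D5:**
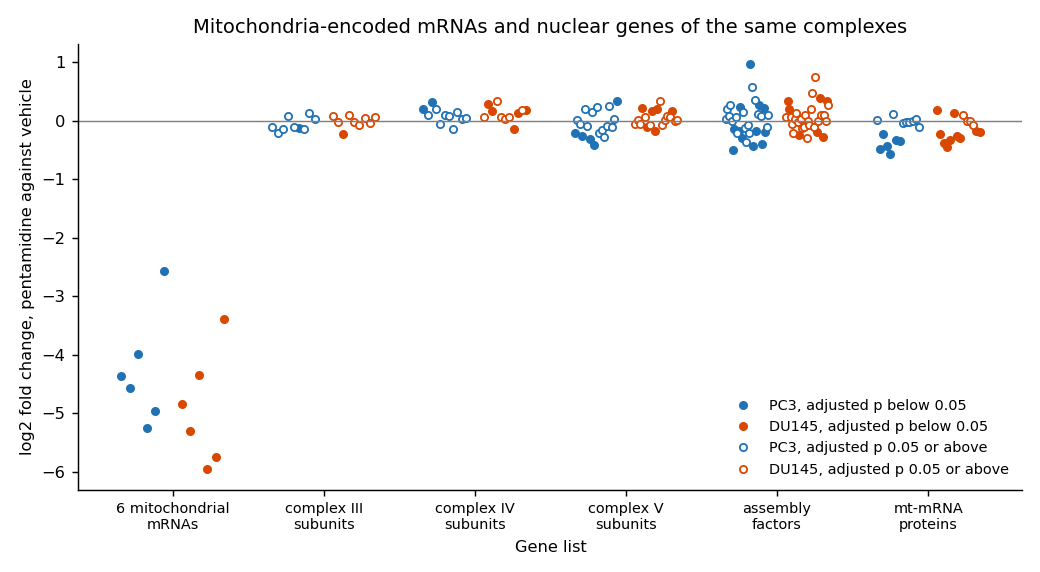
Log2 fold change after pentamidine treatment of the 6 mitochondria-encoded mRNAs and of nuclear genes for the same complexes, in PC3 (blue) and DU145 cells (orange). Points are genes, filled where edgeR's adjusted p was below 0.05. The 6 mRNAs lay between -2.57 and -5.96, and the nuclear genes between -0.56 and 0.96.

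The coding regions were also compared by sequence. A+T content was 53.4% to 53.8% in MT-CO3, MT-CYB, MT-CO1 and MT-CO2, 55.8% in MT-ATP6 and 60.4% in MT-ATP8. Among the members, MT-CO2 fell most and MT-CYB fell least, and their A+T content was 53.8% and 53.7%. Whether A+T content bears on the unequal loss was not tested. Across the 13 mRNAs, Spearman's rho of the log2 fold change with A+T content was -0.20 in PC3 and -0.19 in DU145 cells. With length it was 0.40 and 0.43, with the start position 0.18 and 0.12, and with the vehicle level per kb -0.33 and -0.36. These are descriptions over 13 genes of 1 genome, measured in the same libraries, and some of these genes overlap.

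Outside the mitochondrial genome and its copies, 5 genes were most like the members across the 12 samples, by Pearson's r with the mean of the members' log2 CPM. They were LRRC59, a ribosome-binding protein of the endoplasmic reticulum (r = 0.984), JMJD6, an oxygenase of the nucleus (0.976), UTP20 of ribosome assembly (0.974), SNRPA1 of the spliceosome (0.974) and ABCE1 of ribosome recycling (0.972). The samples form a vehicle and a treated set, so a small and steady decrease is enough for a high r. LRRC59, for example, was at 275 ± 10.1 CPM in vehicle-treated and 207 ± 6.25 in treated PC3 cells, and at 267 ± 1.77 and 204 ± 2.9 in DU145 cells (SD, n = 3), with log2 fold changes of -0.41 and -0.38 (edgeR's adjusted p = 4.87e-06 and 1.68e-13).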

How the data were processed

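Total RNA of PC3 and DU145 cells was enriched with Oligo(dT) beads and sequenced as paired 150-base reads. According to the submitters' processing notes, the authors used HISAT2 2.1.0, DESeq 1.18.1 and the build GRCh38. The authors deposited raw read counts per gene. The program that made the counts is not given in the sources used here. Of 33595 entries, those with the same name and counts were kept once, leaving 32077 genes, and 44 lines of split annotation text held no counts. Other deposited tables hold library-scaled values and the authors' own fold changes and p-values, and were not used.

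Samples were grouped by their titles, and none was left out. Counts were tested with edgeR 4.0.16 (R 4.3.3) by its quasi-likelihood test, with TMM normalization, filterByExpr (minimum count 10) and Benjamini-Hochberg adjustment over all genes tested. Each line was fitted on its own 6 samples and the vehicle comparison on the 6 vehicle samples, while the interaction used all 12. A gene was called within a line where its log2 fold change passed 1 in size and its adjusted p was below 0.05, and at the adjusted p alone elsewhere. The SE of a log2 fold change is its size divided by the square root of F. Ratios and orders were tested by exact permutation (numpy, pandas). Sequences came from GENCODE 29 and were aligned to nuclear copies with Biopython. Scripts were tested on simulated data. The members, gene lists and tests were chosen with earlier results of these data known. Named were the members, the complex I mRNAs, nuclear copies with 10 or more counts in total, and, from each list, genes past both thresholds and the lowest and highest gene with an adjusted p below 0.05 in each line, and the 5 most similar genes. Alternatives were DESeq2 1.42.0, other scalings and filters, added copies, other lengths, a replicate block and each sample left out. Replicates all differed beyond sampling noise (mean chi-square per gene 1.67 to 6.7). Totals were 13514195 to 15131436 counts per sample.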

Additional observations from a re-analysis of the deposited data

Results flagged for a closer look

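The response to pentamidine differed between the cell lines, by the interaction term of edgeR's test, for 5 of the 6 mRNAs. The log2 fold change in DU145 cells minus that in PC3 cells was -0.82 for MT-CYB, -0.35 for MT-CO1, -0.71 for MT-CO2, -0.78 for MT-CO3 and -0.48 for MT-ATP6. By TMM-scaled CPM, all DU145 samples lay above all PC3 samples for these mRNAs under vehicle and below them after treatment, but by plain share of the library the vehicle samples overlapped for MT-CO1 and MT-ATP6. The MT-CO1 difference under vehicle was 0.03 with scaling by library size alone (adjusted p = 0.371). The cause of the difference was not tested.

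Of all genes tested, 20.4% were called by this term. Of the nuclear genes tested, it called 1 of 9 for complex III, 0 of 11 for complex IV and 1 of 18 for complex V. Among the 30 tested assembly factors, 3 had a higher and 1 a lower fold change in DU145 cells. Besides ATP5D and COX19, which were named above, these were CYC1 (0.19), UQCC1 (0.19), UQCC2 (0.45) and LYRM7 (0.31), with edgeR's adjusted p at most 0.0477. ATP5D of complex V gave 0.48 (edgeR's adjusted p = 0.0109), with values below 0 in PC3 cells and above 0 in DU145 cells. COX19, a copper carrier for complex IV, gave -0.76 (edgeR's adjusted p = 0.000162), as it rose in PC3 cells by 0.96 and gave 0.20 in DU145 cells. The keratin markers also differed, KRT8 by -0.34 and KRT18 by -0.74 (edgeR's adjusted p = 0.00279 and 2.99e-08).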

How the results depend on the processing

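The decrease of all 6 mRNAs in both lines, and the interaction of the 5 that passed, kept their direction and call under every alternative run. Log2 fold changes of the 6 lay between -5.31 and -2.51 in PC3 cells and between -6.02 and -3.33 in DU145 cells. The numbers of genes called moved by over 1.5 times under the adjusted p alone (6010 in PC3 and 4860 in DU145 cells, against 658 and 290), with at least 10 counts in every sample (431 and 154) and with DESeq2 in DU145 cells (193). Leaving out each sample gave 654 to 741 genes in PC3 and 293 to 319 in DU145 cells, 2644 to 3268 for the interaction and 8777 to 9671 for the vehicle comparison. Same-numbered samples did not deviate together (correlations of -0.073 to 0.026), so the numbers were not taken to pair samples. A replicate block gave 648 and 285 genes in PC3 and DU145 cells, 2803 for the interaction and 9430 for the vehicle comparison. Under it MT-ATP8 differed between the vehicle groups by 0.42 (adjusted p = 0.00161) and no other member's call changed. Without a filter on low counts MT-ATP8 passed there (0.35) and in the interaction (-0.75, adjusted p = 0.00145, against 0.492 as the highest of all alternatives). Between 13 and 14 of the 15 ratios passed when a sample was left out. The MT-CO3 to MT-ATP8 ratio lost its call in 9 of the 12 fits that left out 1 sample (adjusted p = 0.0536 to 0.139, -0.29 to -0.48), those without PC3 vehicle 1 and 3, PC3 pentamidine 1 and 2, all DU145 vehicle, and DU145 pentamidine 1 and 2. The vehicle difference between MT-ATP6 and MT-CYB had no steady direction with MT-ATP8 and MT-ATP6 as 1 unit (-0.032). That difference widened with length as the number of read starts (0.34) or copies added (0.39). Of the 5 neighbouring pairs, 4 to 5 kept 1 sign in every sample when a vehicle sample was left out, 5 with copies added, and 3 of the 4 pairs left with MT-ATP8 and MT-ATP6 as 1 unit. Depth limits MT-ATP8 alone among the 6, with as few as 33 counts in a treated sample.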
